A study of Mus musculus with 9 samples.

Results

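Mature B cells carry a set of surface proteins that sense antigen and set how strongly the cell answers it. The 9 genes described here, Ms4a1, Cd22, Fcer2a, Cr2, Cd79a, Cd79b, Bank1, Cd37 and Fcrl1, were chosen by gene name from a table of 56980 genes, and all 9 were found and passed the filter on low counts. As background, Cd79a and Cd79b encode the signalling chains that sit beside membrane immunoglobulin and complete the B cell receptor, from the pre-B stage on. Ms4a1 (CD20), Cd22, Fcer2a (CD23), Cr2 (CD21) and Fcrl1 are B cell surface receptors that adjust that signal, most strongly on cells that have left the progenitor stages. Bank1 encodes a scaffold protein inside the cell, not a receptor, and Cd37 encodes a tetraspanin found on many white blood cells. In marrow, immature B cells are made continuously, and mature B cells return there from the blood.

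The libraries were made from C57BL/6 mice of wild type genotype, described as female: 4 young (3 months old, treatment none) and 5 aged (20 months old), each a biological replicate by the labels. The tissue label was bone marrow, while the extraction text named homogenised trabecular bone. In these bulk samples, fewer cells of a type and less RNA per cell cannot be told apart. Both sources left their transcripts: erythroid markers summed to 4009 to 206900 CPM (counts scaled to a common library size with TMM factors) and osteoblast and osteocyte markers to 181 to 3105 CPM.

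Library totals ran from 19804883 to 23548594 estimated counts. Young 4, aged 3 and aged 4 stood apart from the other 6 libraries, with 6.13% to 7.30% of counts from ribosomal protein genes against 3.17% to 3.44%, and they are called the 3-library set. Xist, transcribed from an inactive X chromosome, had 7909 to 21724 counts in aged 1 to 4 and 1 to 9 counts elsewhere, while the Y-linked Ddx3y gave 888 to 1721 counts, and Eif2s3y 1205 to 1912, in young 1 to 4 and aged 5, and both gave 0 in aged 1 to 4. The 4 young libraries and aged 5 thus went against the female label, and age cannot be told apart from sex in comparisons that rest on aged 1 to 4. The libraries labelled young and aged are named by those labels throughout.

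Promoter sequence is shown for 4 genes. Cr2 and Fcer2a had levels that followed each other most closely across libraries, and Cd79a and Cd22 had fitted library set differences of opposite sign. Each line gives the 250 bases before a RefSeq transcription start in build GRCm38.p6, 5′ to 3′ on the gene's strand. The bases just after the start were found in a GENCODE transcript of the gene for Cd22 and Fcer2a but not for Cr2 and Cd79a, whose starts rest on the RefSeq entry alone. The windows are chr1:195176720-195176969 on the minus strand for Cr2, chr8:3694175-3694424 on the minus strand for Fcer2a (the farthest upstream of its 3 listed starts), chr7:24897247-24897496 on the plus strand for Cd79a and chr7:30879029-30879278 on the minus strand for Cd22. Capitals mark matches on either strand to CACCTG (an E-box of the kind bound by E2A proteins), CCCNNGGG (the EBF palindrome) and GAGGAA (a PU.1 core); the octamer ATGCAAAT was searched too.
Cr2: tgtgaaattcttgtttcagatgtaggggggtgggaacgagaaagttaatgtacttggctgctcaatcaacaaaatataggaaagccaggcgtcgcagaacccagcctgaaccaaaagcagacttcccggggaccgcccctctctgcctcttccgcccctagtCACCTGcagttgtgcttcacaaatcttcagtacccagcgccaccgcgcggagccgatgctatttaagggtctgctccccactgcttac
Fcer2a: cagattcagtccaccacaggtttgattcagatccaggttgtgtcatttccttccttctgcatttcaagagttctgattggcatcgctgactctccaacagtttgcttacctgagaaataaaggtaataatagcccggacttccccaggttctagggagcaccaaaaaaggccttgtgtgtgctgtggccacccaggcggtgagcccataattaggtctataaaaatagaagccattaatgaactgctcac
Cd79a: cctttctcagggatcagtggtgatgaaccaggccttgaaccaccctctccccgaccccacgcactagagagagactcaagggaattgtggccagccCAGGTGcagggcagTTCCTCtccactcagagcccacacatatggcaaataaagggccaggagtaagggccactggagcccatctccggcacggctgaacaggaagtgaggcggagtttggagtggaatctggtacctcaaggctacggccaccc
Cd22: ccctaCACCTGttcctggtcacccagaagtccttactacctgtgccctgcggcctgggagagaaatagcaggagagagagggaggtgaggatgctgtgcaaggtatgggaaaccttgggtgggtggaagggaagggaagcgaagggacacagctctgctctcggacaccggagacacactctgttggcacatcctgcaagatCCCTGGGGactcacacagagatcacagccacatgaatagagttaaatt
RefSeq windows were matched for 7 of the 9 genes, and Ms4a1 and Cd79b had no entry. CACCTG was present before at least 1 listed start of 6 of these 7 genes, and in 6 of their 9 windows, against 17.2% of all 32851 windows of the same length. In Fcer2a it lay before another of its starts and not in the window printed. CCCNNGGG was found in 2 of the 9 windows (Bank1 and Cd22) against 11.8% of all windows. GAGGAA was in 3 of the 9 (Cd37, Cd79a and Fcrl1) against 23.3%, and the octamer in 0 against 1.601%. A match is an exact string of letters in a window and was not tied to binding of any factor. Sites that vary from these letters were not counted, so a window without a match can still hold one.

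Per transcript length, the genes spanned a wide range of abundance. In TPM (the deposited unit scaled for gene length and library size), Cd37 was the most abundant in young libraries at 126 ± 32.7 (SD, n = 4), followed by Cd79b at 74.1 ± 8.45 and Cd79a at 68.2 ± 9.14. The lowest young value of Cd37 (83.2 TPM) lay above the highest of Cd79b (81.6 TPM), whereas the ranges of Cd79b and Cd79a overlapped. Cd22 at 14.4 ± 7.93, Ms4a1 at 11.6 ± 5.44, Bank1 at 6.90 ± 3.40, Fcer2a at 6.25 ± 3.20 and Fcrl1 at 5.35 ± 2.20 TPM formed a middle group in which neighbours did not differ beyond their spread. Cr2 had the lowest mean, 2.16 ± 1.38 TPM, with a range that overlapped that of Fcrl1. In aged libraries the order was the same except that Fcrl1 (4.66 ± 1.15 TPM, n = 5) stood above Fcer2a (2.49 ± 2.78 TPM), a pair whose ranges overlapped in both ages.

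**Figure D1:**
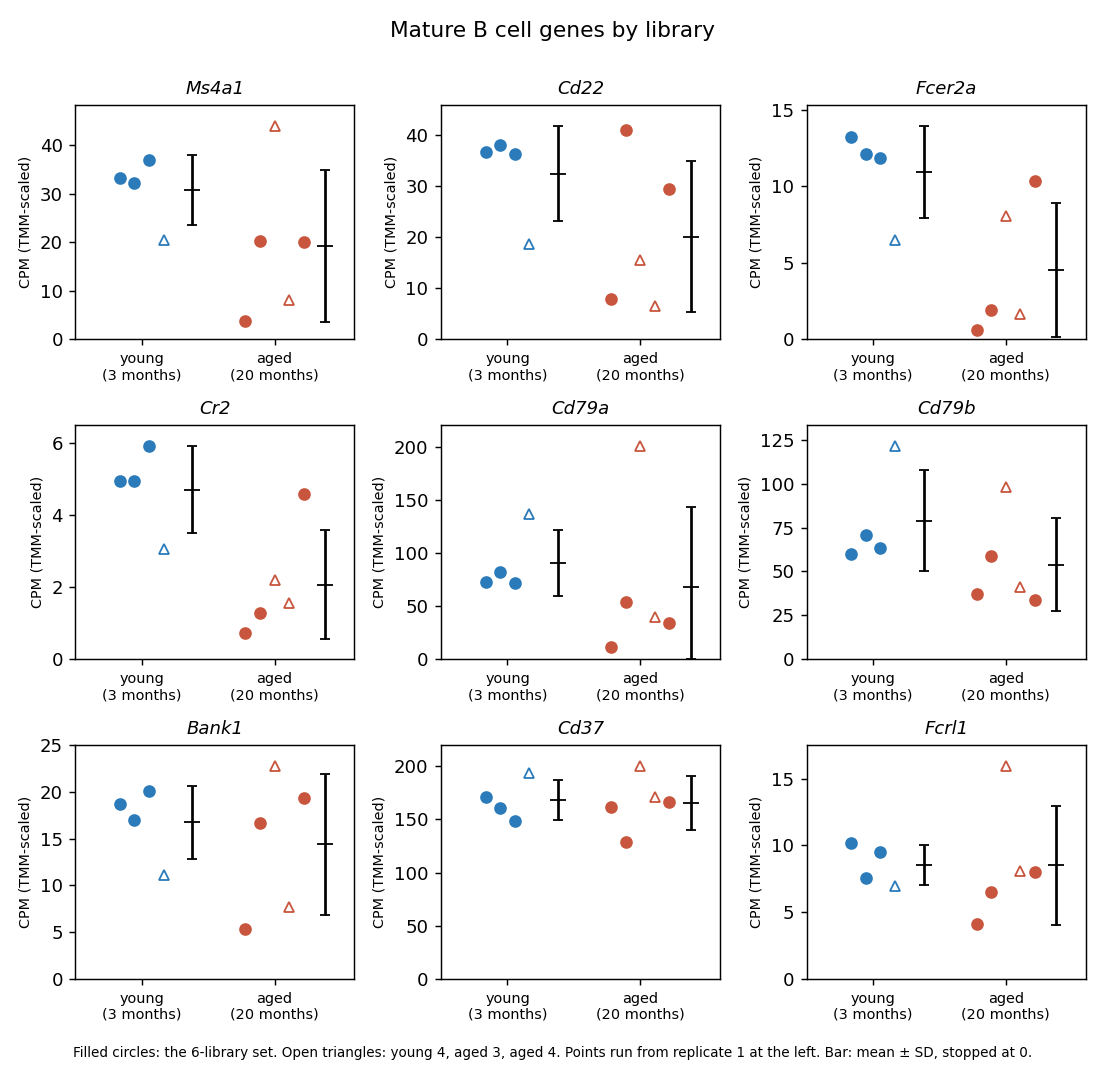
Level of each of the 9 genes in every library, in CPM with TMM factors, for 4 young and 5 aged libraries. Young 1 to 3 lie close together in each panel, while the aged libraries spread widely for every gene but Cd37, with aged 1 the lowest of the 9 libraries in 6 panels and aged 3 the highest in 5.

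All 9 genes had a lower fitted level in aged than in young libraries, but none passed the test over all genes. Over the 9 genes the median log2 fold change of aged against young was −0.55, beside 0.03 over all 16576 genes tested, and 9 of 9 lay below 0 beside 46.5% of all genes. The edgeR quasi-likelihood test with Benjamini-Hochberg adjustment called 0 of the 9 and 0 of 16576 genes (0%). At an unadjusted p under 0.05, 1 of the 9 (Cr2) was lower, against 4.64% of all genes, and 0 were higher, against 4.15%. Every aged library lay below every young library for 0 of the 9, against 2.76% of all genes. DESeq2 called 311 genes in all and limma-voom 0, and both called 0 of the 9. The fitted values for Cd37 and Fcrl1 were close to 0 (−0.03 and −0.01), and their sign turned under other scalings: Cd37 with library totals and Fcrl1 with upper quartile factors.

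Fcer2a and Cr2 had the largest fitted differences. Fcer2a encodes the low-affinity IgE receptor of mature follicular B cells. It was at 13.2, 12.1, 11.8 and 6.52 CPM in young 1 to 4 and at 0.604, 1.91, 8.03, 1.66 and 10.4 CPM in aged 1 to 5, from 14 to 347 counts. Aged 1, 2 and 4 were below every young library, while aged 3 and aged 5 were within the young range. The log2 fold change was −1.28 (SE 0.70, edgeR adjusted p = 0.716), −1.85 without aged 5 and −0.99 without aged 1. Cr2 encodes complement receptors that lower the threshold for B cell activation. Its levels were 4.94, 4.94, 5.92 and 3.06 CPM in young and 0.733, 1.29, 2.21, 1.56 and 4.595 CPM in aged libraries. Aged 1 to 4 were below all young libraries, and aged 5, the aged library with Y-linked transcripts, was within the young range. The log2 fold change of Cr2 was −1.18 (SE 0.49, unadjusted p = 0.0378, edgeR adjusted p = 0.525), −1.71 without aged 5 and −0.96 without aged 1. Cr2 had 17 to 141 counts per library.

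Among the receptors that temper or accompany the signal, Ms4a1 and Cd22 were lower in most aged libraries. Ms4a1, the CD20 gene, was at 33.4, 32.3, 37.1 and 20.4 CPM in young 1 to 4 and at 3.71, 20.2, 44.0, 8.21 and 20.2 CPM in aged 1 to 5. Aged 3 was the highest of all 9 libraries. The other 4 aged libraries were below the lowest young one, young 4, with aged 2 and aged 5 just under it. In TPM aged 2 (8.44) and aged 5 (8.79) were above young 4 (3.57). The CPM range was 11.9-fold within the aged group against 1.81-fold within the young. The log2 fold change of Ms4a1 was −0.68 (SE 0.57, edgeR adjusted p = 0.937), −1.23 without aged 3 and −0.41 without aged 1. Cd22, an inhibitory lectin of the B cell receptor, was at 36.8, 38.2, 36.4 and 18.6 CPM in young and at 7.94, 41.1, 15.6, 6.54 and 29.6 CPM in aged libraries. Here aged 2 was the highest of all libraries, and aged 1, 3 and 4 were below the lowest young library. The log2 fold change of Cd22 was −0.69 (SE 0.52, edgeR adjusted p = 0.896), and −1.13 without aged 2. Fcrl1, an activating receptor of the Fc receptor-like family, was at 10.2, 7.60, 9.49 and 6.99 CPM in young and at 4.14, 6.49, 15.9, 8.05 and 7.98 CPM in aged libraries, with aged 1 and aged 2 below and aged 3 above the young range (log2 fold change −0.01, SE 0.36).

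In CPM, the 2 signalling chains of the B cell receptor were both high in young 4 and aged 3. Cd79a was at 72.3, 82.4, 71.7 and 137 CPM in young 1 to 4 and at 11.2, 53.8, 201, 39.5 and 33.97 CPM in aged 1 to 5. In 4 aged libraries it was below every young library, and in aged 3 above every young library. The log2 fold change was −0.42 (SE 0.67, edgeR adjusted p = 1.00), with −1.39 on leaving out aged 3 and −0.15 on leaving out aged 1. Cd79b was at 60.1, 70.5, 63.5 and 121 CPM in young and at 37.4, 59.1, 98.01, 41.1 and 33.8 CPM in aged libraries. It showed the same 4 aged libraries below the young range, with aged 3 between young 2 and young 4. Its log2 fold change was −0.55 (SE 0.35, edgeR adjusted p = 0.818), −0.88 without aged 3 and −0.27 without young 4. In TPM young 4 was the lowest young library for both Cd79a (55.6) and Cd79b (62.1). Aged 3 was then above all young libraries for Cd79a (95.0) and below them for Cd79b (57.75). The ratio of Cd79a to Cd79b in TPM was 0.895 to 0.954 in the 4 young libraries and 0.244, 0.731, 1.65, 0.764 and 0.812 in aged 1 to 5. The 2 chains thus stood near equal levels in young libraries and were most unequal in aged 1 and aged 3, in opposite directions. In aged 2, 4 and 5 the ratio was also below every young library. The ratio was not tested.

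The scaffold gene Bank1 and the tetraspanin gene Cd37 differed least together with Fcrl1. Bank1 was at 18.7, 16.9, 20.1 and 11.1 CPM in young and at 5.39, 16.7, 22.7, 7.74 and 19.4 CPM in aged libraries, with aged 1 and aged 4 below the young range (log2 fold change −0.22, SE 0.41, and −0.44 without aged 3). Cd37 was at 171, 161, 149 and 193 CPM in young and at 162, 128, 200.2, 171 and 167 CPM in aged libraries, and all but aged 2 were at or above the lowest young library. Its log2 fold change was −0.03 (SE 0.18, edgeR adjusted p = 1.00), with a coefficient of variation of 15.5% in aged libraries against 49.2% to 112% for the other 8 genes. In the authors' deposited table, the log2 fold changes were −1.28 for Fcer2a, −1.18 for Cr2, −0.68 for Ms4a1, −0.68 for Cd22, −0.54 for Cd79b, −0.42 for Cd79a, −0.22 for Bank1, −0.02 for Cd37 and −0.01 for Fcrl1, and the smallest of their adjusted p-values was 0.324, for Cr2.

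Within the 6-library set, young 1 to 3 were tightly grouped and the aged libraries were not. The coefficient of variation over young 1 to 3 was 2.51% for Cd22, 5.75% for Fcer2a, 7.35% for Ms4a1 and 7.97% for Cd79a. Over aged 1, 2 and 5 it was 64.3%, 123%, 64.8% and 64.7% for these genes. Every aged library of this set lay below every young library for 5 of the 9 genes (Ms4a1, Fcer2a, Cr2, Cd79a and Cd79b), against 16.6% of all genes. In 1 fit over all 9 libraries, 9 of the 9 genes were below 0 within this set, against 47.7% of all genes. Fitted on these 6 libraries alone, the log2 fold change was −1.51 (SE 0.84) for Fcer2a, −1.24 (SE 0.61) for Cr2, −1.21 (SE 0.55) for Ms4a1, −1.18 (SE 0.49) for Cd79a and −0.56 (SE 0.22) for Cd79b. The edgeR test called 0 of the 9 there (smallest adjusted p 0.180, for Cd79b), against 0.012% of all genes, and 2 of the 9 (Cd79a and Cd79b) had an unadjusted p under 0.05, against 11.9% of genes that were lower at that level.

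In the 3-library set the picture was mixed. The age difference there rests on a single young library, assumed to vary like the others in 1 fit over all 9 libraries. Of the 9 genes 6 were below 0, against 50.9% of all genes, with a median of −0.19. Aged 3 was above young 4 for Ms4a1, Fcer2a, Cd79a, Bank1, Cd37 and Fcrl1, while aged 4 was below it for all genes but Fcrl1. The fitted log2 fold changes were 0.35 (SE 1.05) for Ms4a1, 0.45 (SE 0.77) for Bank1 and 0.78 (SE 0.51) for Fcrl1, above 0, and −0.80 (SE 0.47) for Cd79b, the farthest below. The same fit called 0 of the 9 within either set (0.00603% of all genes in each). The difference between the 2 age effects was called for 0 of the 9 (0.0121% of all genes), with Fcrl1 the nearest at a difference of 1.32 (SE 0.61, unadjusted p = 0.0615, edgeR adjusted p = 0.925). With the set as a term in the fit over all libraries, 0 of the 9 were called, against 1.92% of all genes, and the median log2 fold change was −0.65.

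**Figure D2:**
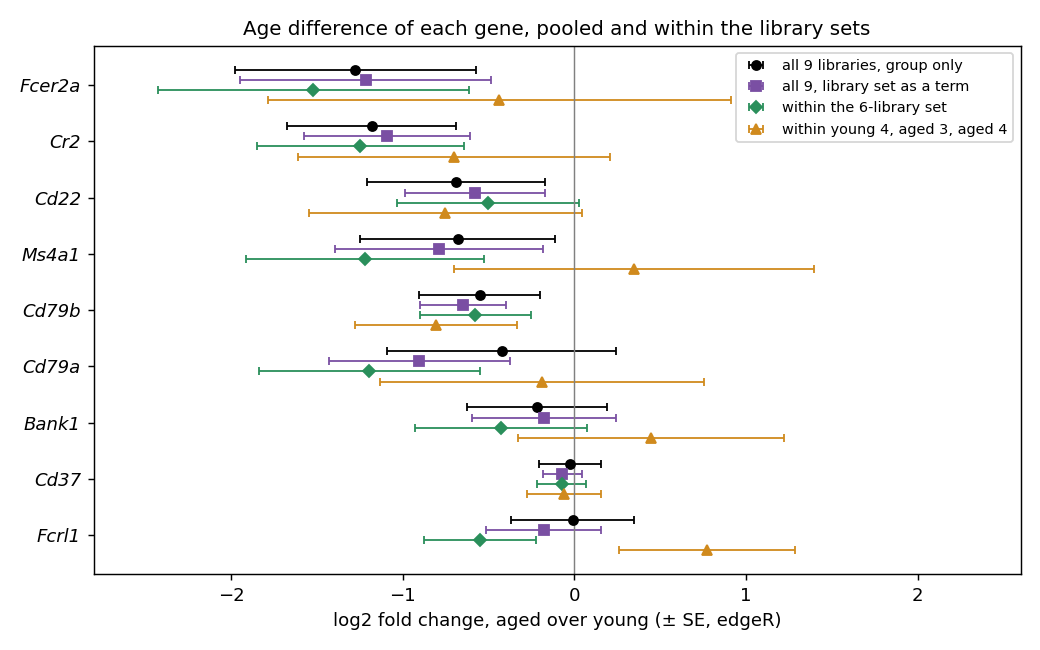
Fitted log2 fold change (aged over young) of each gene with its standard error, for all 9 libraries, with the library set as a term, and within each set. Fcer2a and Cr2 are farthest below 0 over all libraries, Cd37 lies near 0 in all 4 fits, and Ms4a1, Bank1 and Fcrl1 lie above 0 only within the 3-library set.

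Many genes differed between the library sets, and the 9 were not called more often than all genes. With age as a term, Cd79a was higher in the 3-library set by 1.51 log2 units (SE 0.54, adjusted p = 0.0428 by edgeR) and Cd79b by 0.77 (SE 0.26, adjusted p = 0.0334 by edgeR). These 2 of 9 compare with 24.6% of all genes that were called higher in that set, and 0 of 9 were called lower against 24%. Cd22 was at −1.15 (SE 0.46, adjusted p = 0.0632). With upper quartile factors Cd79a kept its difference (1.503) and its adjusted p was 0.0512. Both calls were lost with library totals in place of TMM factors (adjusted p 0.145 and 0.443), where the median of all genes moved to −0.55, and on leaving out any library except aged 2 or aged 4 (adjusted p up to 0.295 for Cd79a and 0.169 for Cd79b). Without aged 3 the difference was 0.58 for Cd79a and 0.46 for Cd79b. With any 1 of the other libraries left out it was 1.20 to 1.86 and 0.66 to 1.05. In TPM the direction turned for young 4, in which Cd79a was at 55.6 and Cd79b at 62.1 against 67.5 to 75.7 and 75.1 to 81.6 in young 1 to 3. Within a library the scale cancels: the ratio of Cd22 to Cd79a in TPM was 0.0490, 0.0340 and 0.0540 in young 4, aged 3 and aged 4, and 0.220 to 0.485 in the other 6. The pair was chosen for its opposite set differences, so this ratio is a description of them.

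Gene length in the deposited table ran alongside the set difference. The 4 genes under 2000 bases (Cd37, Cd79b, Cd79a and Fcrl1) all had a fitted set difference above 0. Of the 5 longer genes, 4 were below 0 (Fcer2a, Bank1, Cr2 and Cd22) and Ms4a1 was at 0.30 (SE 0.64). Over all genes tested, 74.1% of 5537 genes under 2000 bases and 36.1% of 11039 longer genes were above 0, with medians of 0.63 and −0.26. The median age difference was 0.12 for the shorter and −0.01 for the longer genes. The part of length in the values of the 9 genes was not tested.

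**Figure D3:**
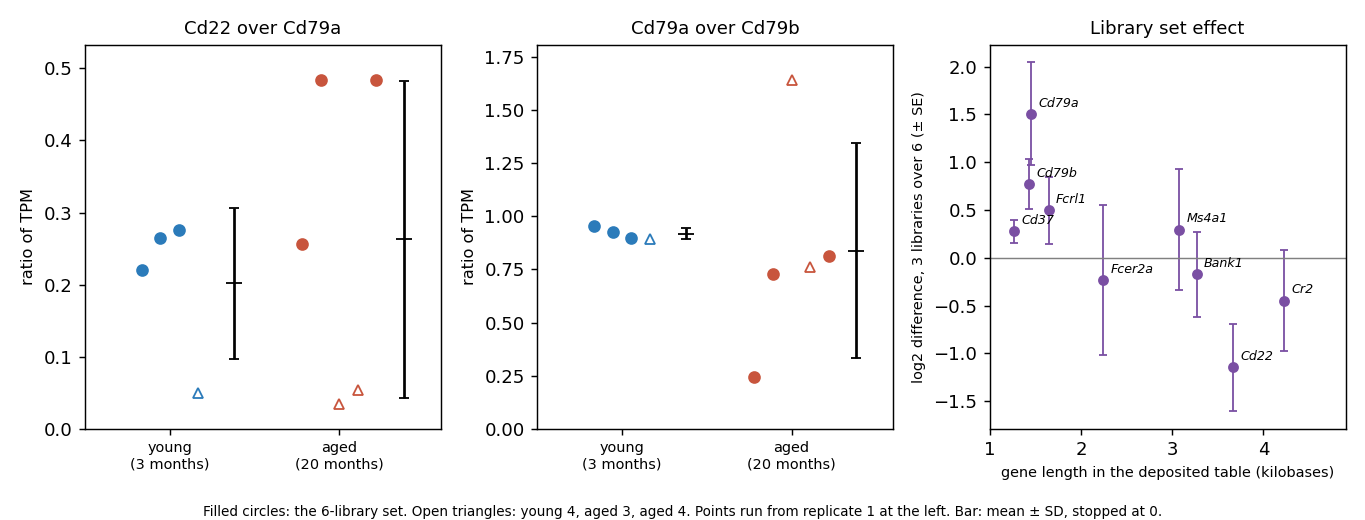
Left and middle, ratios of Cd22 to Cd79a and of Cd79a to Cd79b in TPM in each library; right, the fitted difference of the 3-library set from the 6-library set for each gene (log2, ± SE) against gene length. The 3 open triangles lie below all circles in the left panel, aged 1 and aged 3 leave the common level in the middle panel, and the 4 shortest genes lie above 0 in the right panel.

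Genes other than Cd37 shared their ordering of libraries to a varying degree. Pearson correlations of log2 CPM over the 9 libraries, which share their scaling and the set difference, were 0.24 to 0.96 for the 28 pairs without Cd37 and −0.42 to 0.45 for the 8 pairs with it. Over the 9 libraries these ranges overlapped, with Fcrl1 and Cd22 at 0.24 and Cd37 and Fcrl1 at 0.45. Within the 6-library set they did not, at 0.40 to 0.99 and −0.32 to 0.38. The closest pair was Fcer2a with Cr2 (0.96, and 0.99 in the 6 libraries), followed by Ms4a1 with Bank1 (0.95 and 0.96). Aged 1 was the lowest library for 6 of the 9 genes and aged 3 the highest for 5. The genes whose pattern was most like the mean of the 9 standardised genes, among 14821 genes at 1 CPM or more, were A730036I17Rik (r = 0.983), ENSMUSG00000121246 (0.983), H2-Ob (0.980), Samd14 (0.979), Reps2 (0.975) and 4930572G02Rik (0.974). H2-Ob, a chain of the class II modulator made in B cells, was at 27.8, 28.2, 27.8 and 21.5 CPM in young and at 5.26, 16.9, 29.0, 9.66 and 20.5 CPM in aged libraries. These likenesses are descriptions over 9 libraries.

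Among 18 genes of B cell receptor signalling, 16 were above 0 and 2 below, with a median log2 fold change of 0.20, and edgeR called 0. Blk, a Src-family kinase of B cells, averaged 17.0 ± 0.501 CPM over the young and 8.62 ± 6.66 CPM over the aged libraries (log2 fold change −0.98, SE 0.50). Lyn and Vav1, signalling genes shared with myeloid cells, were at 183 ± 25.3 and 270 ± 81.1 CPM, and at 116 ± 10.8 and 163 ± 34.3. Of 8 inhibitory receptors and phosphatases, 7 were above 0 and 0 were called, with a median of 0.54. Fcgr2b, the inhibitory IgG receptor that myeloid cells also carry, was at 80.9 ± 4.21 and 113 ± 12.5 CPM, and Ptpn6, the phosphatase that Cd22 recruits, at 249 ± 21.9 and 374 ± 98.7. Siglecg, the B cell relative of Cd22, was at 56.1 ± 20.7 and 33.3 ± 7.69 CPM, a difference of −0.75 (SE 0.30, adjusted p = 0.490 by edgeR). Monocyte and macrophage markers, all 6 above 0, summed to 3823 to 4923 CPM in young and 3687 to 7027 CPM in aged libraries, and their part in the signalling genes was not tested.

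Other genes of mature B cells gave no common direction, with 8 of 14 below 0 and a median of −0.10. On leaving out each library in turn the median ran from −0.25 (without aged 3) to 0.07 (without aged 1). Ighd, the IgD constant region of mature naive B cells, was at 48.5, 41.1, 43.7 and 30.01 CPM in young and at 6.34, 20.3, 63.2, 10.8 and 42.3 CPM in aged libraries, with aged 1 lowest and aged 3 highest, as for Ms4a1. Ccr7, a homing receptor gene, was at 7.29 ± 1.36 and 3.99 ± 2.65 CPM, and Gpr183, another, at 6.72 ± 1.18 and 9.44 ± 1.83. Cd74, the invariant chain that macrophages and dendritic cells also make, was at 465 ± 205 and 796 ± 527 CPM. Of 13 B cell transcription factors, 9 were below 0 and 4 above, with 0 called over all libraries. Pax5, which keeps B cell identity, was at 60.8 ± 21.3 and 28.6 ± 28.0 CPM, and Bach2, a repressor of the plasma cell programme, at 40.3 ± 16.3 and 17.9 ± 14.97. Tcf3, which encodes E2A, was lower in every aged than in every young library, at 140 ± 15.3 and 83.4 ± 15.4 CPM (edgeR adjusted p = 0.275). It fell by 0.78 with the set as a term (SE 0.13, edgeR adjusted p = 0.0405). That fit called 319 genes, and 0 to 2 on leaving out any library other than aged 3 or aged 5. Pou2f2, an octamer-binding factor, was higher in every aged library, at 28.9 ± 0.865 and 83.9 ± 51.6 CPM (edgeR adjusted p = 0.320).

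**Figure D4:**
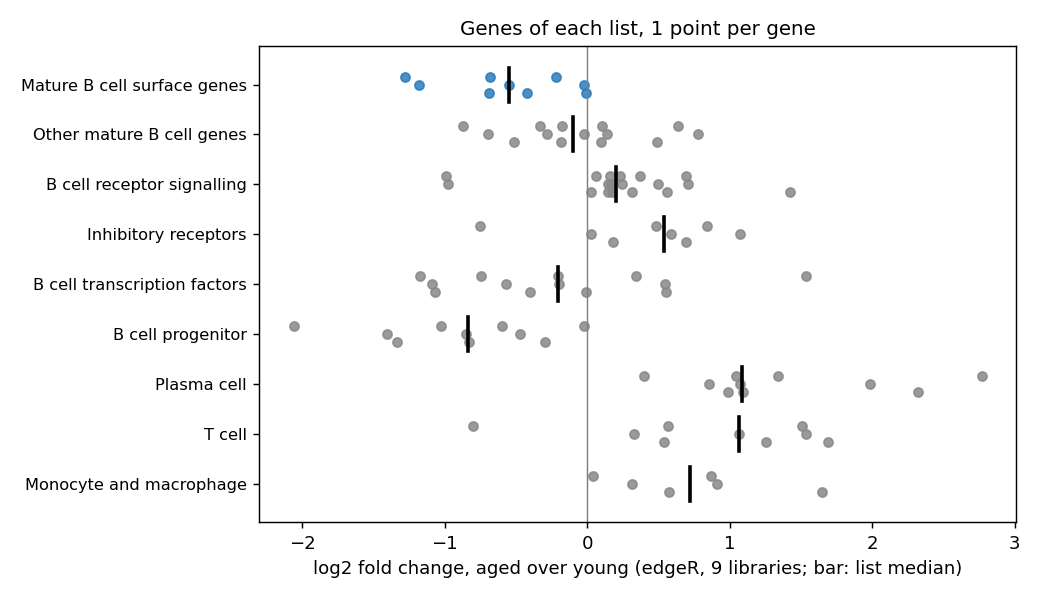
Log2 fold change (aged over young, edgeR over 9 libraries) of every tested gene in 9 lists, with the median of each list as a bar. The 9 mature B cell genes lie at or below 0, the signalling and inhibitory lists lie mostly above 0, and progenitor genes lie below and plasma cell genes above.

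Genes of the stages before and after the mature B cell took different courses by library. The 10 progenitor markers were all below 0 in the fit on age alone (median −0.84, 0 called), and 9 of 10 were below 0 with the set as a term (median −1.46). Without aged 3 the median on age alone was −1.86. The fit with the set then called 7 of 10 lower, and 1633 of 16480 genes in all. It called 0 of the 10 with every library in, and 0 on leaving out any other library. Their summed level was 243 to 307 CPM in young and 176, 202, 293, 107 and 152 CPM in aged 1 to 5. Rag1, needed to rearrange antigen receptor genes, reached just 0.829 CPM in aged 5, the lowest of all libraries, against 50.9 to 56.1 in young 1 to 3. In that same library the log2 difference from young 1 to 3 was −0.25 for Fcer2a, −0.19 for Cr2 and −0.17 for Fcrl1. Bank1 and Cd37 were at 0.06, Cd22 at −0.33, Ms4a1 at −0.76, Cd79a at −1.15 and Cd79b at −0.93. Aged 5 is the aged library with Y-linked transcripts, so these values come from libraries alike in that respect, with 1 aged library and no test. Across the lists, the median difference of aged 5 from young 1 to 3 was −2.36 for progenitor markers and −0.25 for the 9 genes. All 10 plasma cell markers were above 0 (median 1.08, 0 called over all libraries), and summed to 390 to 719 CPM in young and 497 to 1665 CPM in aged libraries. With the set as a term 3 of the 10 rose, against 1.92% of all genes called in either direction: Xbp1 by 1.34 (SE 0.15), Prdm1 by 2.02 (SE 0.35) and Derl3 by 2.91 log2 units (SE 0.60), with edgeR adjusted p of 0.0405 to 0.0466, and 0 of the 10 were called on leaving out young 1, 2, 3 or 4, aged 1 or aged 4.

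Markers of other cells that could carry these transcripts were measured as well. Follicular dendritic cells also express Cr2 and Fcer2a. Of 3 markers, Cxcl13 alone passed the filter, and Madcam1 and Coch had 0 to 20 counts per library. Cxcl13, a chemokine gene that attracts B cells, had 12, 3, 15 and 1 counts in young 1 to 4 and 854, 445, 120, 12 and 38 in aged 1 to 5, with the highest counts in aged 1 and aged 2, where Cr2 was lowest. Its log2 fold change was 5.27 (SE 1.27, adjusted p = 0.267 by edgeR). Including the library set gave 5.55 (SE 1.14, adjusted p = 0.0466 by edgeR), a call lost on leaving out any library other than aged 3 or aged 5. T cell markers, a cell type that also expresses Cd37, had 8 of 9 above 0 and summed to 65.3 to 79.8 CPM in young and 58.2 to 134 CPM in aged libraries; with the set as a term 3 of the 9 (Cd8a, Cd3g and Trac) rose (adjusted p 0.0405 to 0.0496 by edgeR), against the same 1.92%. On leaving out any library other than aged 3 or aged 5, 0 of the 9 were called. Markers of cells outside the B lineage were lower in 2 lists. All 6 erythroid markers (median −1.30) and all 6 osteoblast and osteocyte markers (median −1.11) were below 0, with 0 called on age alone. Of 7 neutrophil markers, 5 were above 0. The part of these cells in the levels of the 9 genes was not tested.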

How the data were processed

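RNA was sequenced from 4 young and 5 aged mice. Estimated counts per gene, unscaled, were deposited by the authors, per the file headers, and were rounded to whole numbers here. The 9 TPM columns of the deposited table were used for levels between genes and ratios. The authors also deposited log2 fold changes, linear fold (ratio) values and p-values, and the table's name refers to DESeq2. Bowtie 0.12.2 and mm8 are named in the submitters' processing notes with no role; the quantifier is not given in the sources used here. Gene names came from the table.

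Age was tested with the edgeR 4.0.16 quasi-likelihood test (R 4.3.3, TMM, filterByExpr with minimum count 10 and total 15, group as the only term), Benjamini-Hochberg over 16576 genes, threshold 0.05. CPM use TMM factors; log2 CPM a prior count of 2. Values are mean ± SD, and fold changes have the fit's SE. The 3-library set was fitted as a term and as 4 age-by-set cells. DESeq2 1.42.0 and limma 3.58.1 (voom), other scalings, filters and omitted libraries were alternatives. Named genes were the 9, up to 4 list genes with the smallest p or a call, the 6 most alike, and Xist, Ddx3y and Eif2s3y; Ighd and Pax5 were named after their values were seen. A list gene named by this rule is not reported here. The members and lists were chosen with earlier results of these data known. No 2 libraries agreed within sampling noise (smallest chi-square per gene 15.3). Promoter windows are from RefSeq (GRCm38.p6). Figures used matplotlib 3.10.9.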

Additional observations from a re-analysis of the deposited data

Results flagged for a closer look

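Among 18 sets of values tested (9 genes in each age group), 4 held a library far from the rest of its group. Chance gives about 1 in 20 for a single set. The 9 genes share libraries and vary together, so the 18 sets are not independent and the count was not tested. Cd22 in young 4 was the lowest young value at 18.6 CPM. Cd79a in young 4 was the highest young value at 137 CPM, and Cd79b in young 4 likewise at 121 CPM. Cd79a in aged 3 was the highest aged value at 201 CPM. All 4 fall in the 3-library set, which also had the higher share of ribosomal protein counts. In TPM, Cd79a and Cd79b in young 4 were the lowest of the young libraries (55.6 and 62.1), so their direction depends on the scale.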

How the results depend on the processing

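In each alternative with a test, 0 of the 9 genes were called for age. Over all genes, DESeq2 called 311 and the fit with the set as a term 319. That term called 712 without aged 5 and 1633 without aged 3. The other alternatives called 0 to 13 genes, so 0 of the 9 says little there. In all alternatives run the median log2 fold change of the 9 genes was below 0, from −0.98 with limma-voom to −0.19 within the 3-library set. It was −0.88 to −0.37 on leaving out each library in turn, and −0.88 to −0.38 doing so with the set as a term. The sign turned for Fcrl1 with upper quartile factors (0.0156), for Cd37 with library totals (0.00585), and within the 3-library set for Ms4a1 (0.35), Bank1 (0.45) and Fcrl1 (0.78). In aged 5 against young 1 to 3, which allows no test, Cd37 (0.0599) and Bank1 (0.0632) were above 0. On leaving out libraries, Fcrl1 ranged from −0.36 to 0.17 and Cd37 from −0.10 to 0.0535, and with the set as a term Bank1 from −0.45 to 0.13, Fcrl1 from −0.55 to 0.0470 and Cd37 from −0.10 to 0.00762. For the difference between the library sets, library totals turned Ms4a1 (−0.21), Cd37 (−0.24) and Fcrl1 (−0.0104). On leaving out libraries, that difference ranged from −0.79 to 0.82 for Ms4a1, −1.12 to 0.78 for Fcer2a, −0.71 to 0.15 for Cr2 and −0.79 to 0.14 for Bank1. For Cd22 it passed with library totals (adjusted p = 0.0106) and without aged 1 (0.00491). The causes were not tested. With a replicate block (same-numbered libraries paired, which leaves aged 5 without a partner) the median was −0.96, 0 of the 9 were called and 13 genes in all; deviations of same-numbered libraries correlated at −0.39 to 0.74, so the numbers were not taken as pairs. Cr2 and Fcer2a, at 17 to 141 and 14 to 347 counts, carry the most counting error. Set-term fits without a library, and scalings for the set difference, were chosen after seeing the data.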
